A study of Homo sapiens with 4 samples.

Results

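The 10 genes described here encode secreted WNT ligands (WNT10A, WNT4, WNT5A, WNT7A and WNT7B), cell-surface receptors of the pathway (the Frizzled receptor FZD7 and the R-spondin receptors LGR4 and LGR6) and secreted Dickkopf proteins (DKK1 and DKK3). They were taken by gene name from the 60617 genes of the deposited count table. The set was drawn up with the knockdown effect on these genes already known. The differences between the groups are therefore given for these 10 genes as a description, and no p-value is given for them.

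The study compared SCC13 cells, a line derived from human cutaneous squamous cell carcinoma, labelled wild type and grown in CnT-07 keratinocyte medium with penicillin and streptomycin. CELF2 knockdown cells had been infected with a lentivirus carrying an shRNA against CELF2, an RNA-binding protein that acts on splicing, mRNA stability and translation, and control cells with a lentivirus carrying a scrambled shRNA. Each group had 2 libraries of polyA RNA, and the control libraries came from cells with a lentiviral shRNA too. The labels do not tell whether the knockdown libraries shared 1 hairpin, or whether replicates came from separate cultures, and the p-values below cover only the spread between these libraries.

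WNT proteins are lipid-modified by the acyltransferase PORCN, carried to the cell surface by WLS, and bind Frizzled receptors together with the coreceptors LRP5 and LRP6. In the canonical branch this stabilises beta-catenin, which enters the nucleus and acts with TCF and LEF factors; other branches act on cell polarity and calcium without beta-catenin. R-spondins bound to LGR receptors keep Frizzleds on the membrane by removing the ligases RNF43 and ZNRF3, and DKK1 blocks the coreceptors. In skin the pathway drives hair follicle and tooth formation, and inherited loss of WNT10A causes missing teeth and other ectodermal defects.

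The knockdown libraries held 19928788 and 23177056 counts and the control libraries 27898889 and 17649090. A count of 3 corresponded to 0.148 and 0.126 CPM in the knockdown libraries and to 0.107 and 0.178 CPM in the control libraries, where CPM is the TMM-normalised count at a common library size. CELF2 had 0 counts in each knockdown library, and 1 and 0 counts in the control libraries, so the group labels could not be checked by the targeted transcript. All 10 keratinocyte markers on the list (KRT5, KRT14, TP63 and others) passed the filter on low counts, and KRT5 stood at 10766 and 6697 CPM in the knockdown and at 5456 and 7560 CPM in the controls. Some markers of other skin cells were at 0 in every library: COL1A2, COL3A1, DCN, LUM and THY1 of fibroblasts, TYR, TYRP1, SOX10 and MLANA of melanocytes, EMCN of endothelium, and PTPRC, CD3E, CD4 and MS4A1 of immune cells. The summed level of the 9 fibroblast markers was 65.4 and 37.1 CPM in the knockdown against 37.1 and 34.96 CPM in the controls. Most of it was FAP, at 27.3 and 15.9 CPM in the knockdown and 23.8 and 18.6 CPM in the controls, and COL1A1, at 37.5 and 20.7 CPM in the knockdown and 13.1 and 16.1 CPM in the controls. Sums over the 7 melanocyte markers were 9.02 and 9.04 CPM in the knockdown against 8.82 and 6.11 CPM in the controls, mostly PMEL and MITF, which were counted in every library. For the 6 endothelial markers they were 1.82 and 2.23 CPM in the knockdown against 0.679 and 0.356 CPM in the controls, and VWF had 10 and 14 counts in the knockdown and 0 in each control. The 8 immune cell markers summed to 10.8 and 2.27 CPM in the knockdown against 1.25 and 0.534 CPM in the controls, and CD14 alone had 10.6 and 2.02 CPM in the knockdown and 1.21 and 0.356 CPM in the controls. The part of these markers in the WNT values was not tested. These are bulk libraries, in which fewer cells expressing a gene and less RNA per cell cannot be told apart.

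WNT10A lies on the plus strand of chromosome 2 (GRCh38, chr2:218880363-218899581), and WNT6, another WNT ligand, ends 6.13 kb before it on the same strand. The promoter windows of these neighbouring ligands, and that of DKK1, are shown because the ligands had the largest differences in the family and DKK1 is an inhibitor that is also a known target of beta-catenin. Each runs from 250 bases before to 50 bases after the start of a transcript in RefSeq (GRCh38.p14), 5′ to 3′ on the plus strand. The windows are chr2:218880602-218880901 for WNT10A, chr2:218859555-218859854 for WNT6 and chr10:52314031-52314330 for DKK1. Capitals mark GC boxes (GGGCGG on either strand) in the WNT10A and WNT6 windows, and TCF/LEF motifs (CTTTG followed by A or T in each of the next positions, AA, AT, TA or TT, on either strand) in the DKK1 window.
WNT10A promoter: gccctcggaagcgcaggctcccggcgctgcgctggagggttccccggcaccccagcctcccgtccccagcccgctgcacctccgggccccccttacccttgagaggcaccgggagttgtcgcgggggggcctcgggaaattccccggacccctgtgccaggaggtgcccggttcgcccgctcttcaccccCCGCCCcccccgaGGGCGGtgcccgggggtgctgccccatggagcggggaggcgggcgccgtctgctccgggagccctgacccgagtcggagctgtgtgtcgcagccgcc
WNT6 promoter: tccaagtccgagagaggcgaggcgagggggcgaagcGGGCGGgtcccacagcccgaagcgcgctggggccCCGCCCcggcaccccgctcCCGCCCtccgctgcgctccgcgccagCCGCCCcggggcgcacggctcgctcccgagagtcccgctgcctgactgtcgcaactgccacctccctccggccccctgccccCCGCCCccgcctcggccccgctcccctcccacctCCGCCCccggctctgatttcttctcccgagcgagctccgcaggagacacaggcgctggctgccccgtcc
DKK1 promoter: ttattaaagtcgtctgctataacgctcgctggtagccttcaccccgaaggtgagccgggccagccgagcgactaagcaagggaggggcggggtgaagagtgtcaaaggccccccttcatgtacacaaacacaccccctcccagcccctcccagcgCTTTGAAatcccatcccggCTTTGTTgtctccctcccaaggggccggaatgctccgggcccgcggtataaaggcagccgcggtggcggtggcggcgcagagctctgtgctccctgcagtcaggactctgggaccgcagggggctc

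The WNT10A window held 2 GC boxes, 60 and 47 bases before the start, and no TCF/LEF motif. The window of WNT6 held 6 GC boxes and no TCF/LEF motif. In the 35116 RefSeq promoter windows of the same length, some of which belong to the same gene, 44.95% held a GC box, 26.7% held 2 or more and 2.86% held 6 or more. DKK1 had 2 TCF/LEF motifs, 95 and 76 bases before the start, where 13.8% of all windows held at least 1 and 1.58% held 2 or more. Windows were at hand for 7 of the 10 genes (WNT10A, WNT4, WNT5A, WNT7A, LGR4, LGR6 and DKK1), and among those 7 a TCF/LEF motif was found in DKK1 alone. GC boxes numbered 9 in the WNT4 window and 4 in that of WNT7A, and the LGR4 and LGR6 windows held none. These are matches of letters, and no binding was measured.

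WNT10A (ENSG00000135925), a ligand of hair follicle, tooth and epidermis, had the largest difference of the 10 genes. It had 112 and 37.1 CPM in the knockdown libraries, against 10.9 and 9.20 CPM in the control libraries. Both knockdown libraries were above both controls, and the lower of them was 3.40 times the higher control. The means were 74.6 ± 53.0 CPM in the knockdown and 10.1 ± 1.22 CPM in the controls (SD, n = 2 each). The fit gave a log2 fold change of knockdown over control of 2.88 ± 0.48 (SE of the fit). Of 15170 genes tested, 76 (0.501%) had a larger log2 fold change. The knockdown libraries differed 3.02-fold from each other and the controls 1.19-fold. Without knockdown replicate 1 the log2 fold change was 1.89, and without knockdown replicate 2 it was 3.47.

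WNT4 (chromosome 1, minus strand), which acts in kidney and reproductive tract development and is expressed in epidermis, showed the same order of libraries at a lower level. It had 9.91 and 4.08 CPM in the knockdown and 2.11 and 1.90 CPM in the controls, means of 6.99 ± 4.12 and 2.00 ± 0.147 CPM (SD, n = 2 each). The groups did not overlap, and knockdown replicate 1 was again the highest, 2.43 times knockdown replicate 2. The log2 fold change was 1.79 ± 0.48 (SE), and 1.03 without knockdown replicate 1. A small part of the WNT4 exons is shared with a noncoding gene on the opposite strand, AL445253.1, and since the strand setting of the counting is not given, its count is uncertain.

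The other 3 ligands overlapped between the groups. WNT5A, the main ligand of beta-catenin-independent signalling, had 4.83 and 3.03 CPM in the knockdown and 4.04 and 2.32 CPM in the controls (log2 fold change 0.29 ± 0.43, SE). WNT7A, an epithelial ligand known from limb patterning, had 21.5 and 30.7 CPM in the knockdown and 23.6 and 23.4 CPM in the controls (0.15 ± 0.23). WNT7B, its close paralog, had 27.3 and 28.1 CPM in the knockdown and 10.5 and 27.4 CPM in the controls (0.56 ± 0.40). In WNT7B the value of 10.5 CPM in control replicate 1 stood apart from the other 3 libraries. Its log2 fold change was 0.01 without that library and 1.42 without control replicate 2. For WNT5A the sign turned without knockdown replicate 1 (-0.07) or control replicate 2 (-0.03), and the value was 0.75 without control replicate 1. For WNT7A the sign turned without knockdown replicate 2 (-0.14).

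**Figure D1:**
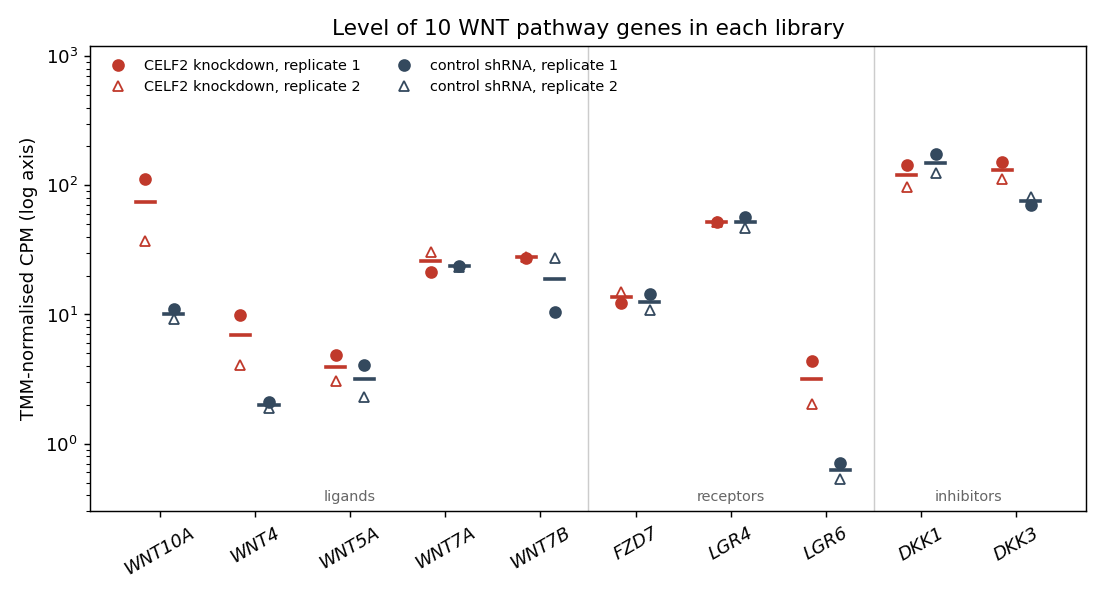
TMM-normalised CPM of the 10 genes on a log axis, with a point for each library (knockdown left of control) and a bar at the mean of each group. WNT10A spans 37.1 to 112 CPM in the knockdown and 9.20 to 10.9 CPM in the controls, while LGR4 lies between 46.4 and 57.3 CPM in all 4 libraries.

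Of the receptors, LGR6 (chromosome 1, plus strand), an R-spondin receptor that marks stem cells of the skin in mouse, was separated between the groups. Its counts were 88 and 48 in the knockdown and 20 and 9 in the controls, or 4.34 and 2.02 CPM in the knockdown against 0.714 and 0.534 CPM in the controls. The lower knockdown value was 2.83 times the higher control value, and knockdown replicate 1 was 2.15 times replicate 2. The ratio of the summed counts, scaled to depth, was 4.77, with an exact 95% interval of 3.18 to 7.40 that covers counting error only. The interval leaves out the spread between libraries and the choice of LGR6 on this contrast, and is no test of the difference. The fitted log2 fold change was 2.31 ± 0.54 (SE), and 1.68 without knockdown replicate 1.

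LGR4, the more widely expressed R-spondin receptor, had 51.8 and 52.0 CPM in the knockdown and 57.3 and 46.4 CPM in the controls. Its group means were 51.9 ± 0.138 and 51.8 ± 7.71 CPM (SD, n = 2 each), and its log2 fold change was 0.00 ± 0.18 (SE). FZD7, a Frizzled linked to stem cells and canonical signalling in several epithelia, had 12.2 and 14.9 CPM in the knockdown and 14.4 and 10.8 CPM in the controls (0.10 ± 0.26). Both receptors overlapped between the groups, and the sign of their small differences turned with single libraries left out, with LGR4 running from -0.13 to 0.15 and FZD7 from -0.07 to 0.32.

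The Dickkopf genes had the highest mean levels per kb of exon of the set in both groups. DKK1 (chromosome 10, plus strand) had 145 and 97.5 CPM in the knockdown and 174 and 124 CPM in the controls. The groups overlapped, with a log2 fold change of -0.30 ± 0.25 (SE) that ran from -0.60 without knockdown replicate 1 to -0.04 without control replicate 1. The exons of DKK1 share positions with the antisense gene PRKG1-AS1, so its count is uncertain. DKK3 (chromosome 11, minus strand), a divergent Dickkopf that does not bind the LRP coreceptors as DKK1 does, had 152 and 112 CPM in the knockdown and 70.8 and 81.5 CPM in the controls. Both knockdown libraries were above both controls, by 1.37 times at the nearest, with a log2 fold change of 0.79 ± 0.20 (SE) and 0.56 without knockdown replicate 1.

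**Figure D2:**
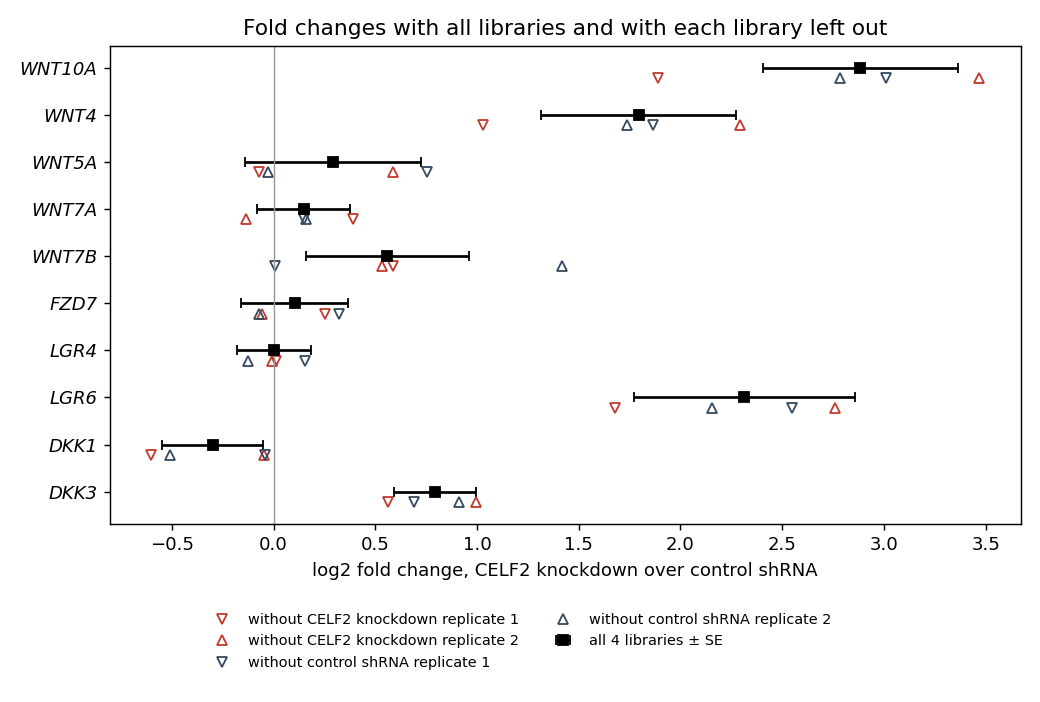
Log2 fold change of knockdown over control for the 10 genes, as squares with the SE of the fit from all 4 libraries and as triangles with each library left out in turn. WNT10A stays between 1.89 and 3.47, and WNT7B runs from 0.01 to 1.42 depending on which control library is left out.

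All 10 genes passed the filter on low counts. In 4 of them (WNT10A, WNT4, LGR6 and DKK3) both knockdown libraries were above both controls, as in 27.1% of all tested genes, in 0 they were below both, and 6 overlapped. By edgeR's quasi-likelihood test, with Benjamini-Hochberg adjustment over 15170 genes at 0.05, 1 of the 10, WNT10A, was called higher and 0 lower. That call lay close to the threshold. The calls depended on the setting. With limma-voom 0 of the 10 were called. Without a filter, with DESeq2 and with a replicate block, WNT10A, WNT4, LGR6 and DKK3 were called higher. Over all genes 0.606% were called higher and 0.27% lower, 0.877% in either direction. A log2 fold change of at least 1 was found in 3 of the 10 (WNT10A, WNT4 and LGR6) and in 8.83% of all tested genes. Since the genes were chosen on this contrast, these calls are a description and no test of them, and the shares stand beside the counts only. In the 3 genes with a log2 fold change of at least 1, the knockdown libraries also lay apart from each other. WNT10A, WNT4 and LGR6 were each at least 2-fold higher in knockdown replicate 1 than in replicate 2, as were 5.32% of all tested genes, while 6 of the 10 genes and 50.4% of all tested genes were higher in replicate 1 at all.

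Scaled to exon length, the order of the levels differed between the groups mainly in the place of WNT10A. In the knockdown the order in CPM per kb of exon was DKK1 (54.9), DKK3 (26.1), WNT10A (21.9), LGR4 (8.18), WNT7A (5.70), WNT7B (5.48), FZD7 (3.51), WNT4 (1.55), LGR6 (0.694) and WNT5A (0.531). Neighbours whose libraries overlapped in the knockdown were DKK3 and WNT10A, WNT7A and WNT7B, WNT4 and LGR6, and LGR6 and WNT5A. In the controls the order was DKK1 (67.5), DKK3 (15.1), LGR4 (8.17), WNT7A (5.14), WNT7B (3.74), FZD7 (3.26), WNT10A (2.95), WNT4 (0.443), WNT5A (0.429) and LGR6 (0.136). There WNT7A overlapped WNT7B, WNT7B overlapped FZD7, FZD7 overlapped WNT10A, and WNT4 overlapped WNT5A.

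Among all 19 human WNT ligand genes WNT10A ranked 1 in the knockdown, at 10.9 to 32.9 CPM per kb, and did not overlap the next, WNT7A, at 4.69 to 6.70 CPM per kb. In the controls it ranked 3, at 2.70 to 3.20 CPM per kb, below WNT7A at 5.12 to 5.16 CPM per kb and within the range of WNT7B, 2.07 to 5.42 CPM per kb. WNT2 and WNT8A had no count in any library.

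**Figure D3:**
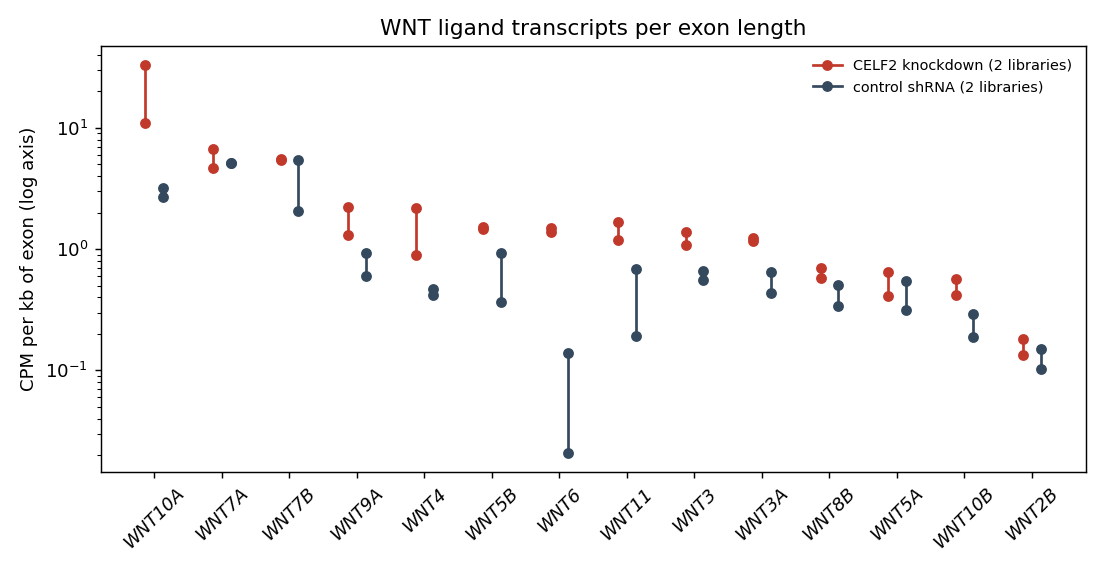
CPM per kb of exon on a log axis for the 14 WNT ligands with the highest knockdown levels, with the 2 libraries of each group joined by a line and knockdown left of control. WNT10A is highest in the knockdown at 10.9 to 32.9, while WNT7A is highest in the controls at 5.12 to 5.16.

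The other ligands were next counted from the complete family. Of the 14 ligands outside the set, 9 passed the filter and 0 were called by the p adjusted over all genes. At an unadjusted p below 0.05 (edgeR quasi-likelihood test) 6 were higher and 0 lower. Over all genes 12.1% were higher and 9.97% lower at that unadjusted level, 22.1% in either direction. All 9 fitted log2 fold changes were above 0, and 8 of the 9 had both knockdown libraries above both controls, beside 27.1% of all tested genes. The median was 1.15, beside a median of 0.00 over all tested genes, and ran from 0.86 without knockdown replicate 1 to 1.37 without control replicate 2. Ligands with few counts in the controls could enter this count through the knockdown libraries alone.

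WNT6 was the clearest of these cases. It had 48 and 61 counts in the knockdown and 1 and 4 counts in the controls, or 2.37 and 2.57 CPM against 0.0357 and 0.237 CPM. The ratio of summed counts scaled to depth was 22.2, with an exact 95% interval of 9.22 to 69.7 for counting error only. Its log2 fold change was 4.33 ± 0.73 (SE) and did not pass (edgeR, Benjamini-Hochberg adjusted p = 0.0501), nor did it with limma-voom (adjusted p = 0.0559). It passed with RLE or upper-quartile factors, no filter, DESeq2, a replicate block and the GC correction. Those adjusted p ran from 2.31e-08 (edgeR, no filter) to 0.0488 (edgeR, GC correction). The log2 fold change itself ran from 3.34 (control replicate 1 left out) to 5.93 (control replicate 2 left out). WNT3, a canonical ligand expressed in hair follicles, had 6.01 and 4.71 CPM in the knockdown and 2.39 and 2.85 CPM in the controls (log2 fold change 1.04, edgeR adjusted p = 0.151). WNT9A, a ligand of joint and limb development, had 8.92 and 5.17 CPM in the knockdown and 3.71 and 2.37 CPM in the controls (1.19, edgeR adjusted p = 0.153). WNT11, a ligand of cell movement, had 2.86 and 3.997 CPM in the knockdown and 0.464 and 1.66 CPM in the controls (1.75, edgeR adjusted p = 0.160), and shares exon positions with a noncoding gene. Without control replicate 2 the log2 fold change of WNT11 was 2.89.

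WNT10A and WNT6 are neighbours, so the genes around them were also read. Within 200 kb on either side of WNT10A lie 13 protein-coding genes, WNT10A included, of which 6 passed the filter; in 4 of these, WNT10A among them, both knockdown libraries were above both controls, in 1 they were below, and 1 overlapped. WNT10A and WNT6, which prompted the look, are 2 of the 4, and over all tested genes 27.1% were above and 27.9% below. CDK5R2, an activator of the kinase CDK5 best known from neurons, is the nearest protein-coding gene downstream, 60.1 kb past the end of WNT10A. It had 6.21 and 4.92 CPM in the knockdown and 0.536 and 1.01 CPM in the controls, and it rose by a log2 fold change of 2.88 ± 0.46 (SE, edgeR adjusted p = 0.0483). Its call was lost without knockdown replicate 2 (adjusted p = 0.107), without control replicate 1 (0.160) and with limma-voom (0.0558), over a range of 4.66e-08 to 0.160 among the alternatives. CDK5R2 shares a short stretch of exon with an antisense gene, so its count is uncertain.

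The wider window was chosen after its values had been seen. CRYBA2, a lens crystallin 90.6 kb downstream, had 1.23 and 1.18 CPM in the knockdown and 0.179 and 0.534 CPM in the controls (log2 fold change 1.84, edgeR adjusted p = 0.155). TTLL4, a tubulin glutamylase upstream, had 41.1 and 54.4 CPM in the knockdown and 70.7 and 57.2 CPM in the controls (-0.42, edgeR adjusted p = 0.285). STK36, a kinase further upstream, had 38.0 and 24.7 CPM in the knockdown and 31.8 and 34.4 CPM in the controls. The tested genes that were higher in both knockdown libraries lay from WNT6 to CRYBA2, and the upstream pair was lower or overlapping. WNT6 had 1 and 4 counts in the controls, and CRYBA2 had 5 and 9. Both could therefore enter the count of tested genes through the knockdown libraries alone. Whether these neighbours share a cause was not tested.

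**Figure D4:**
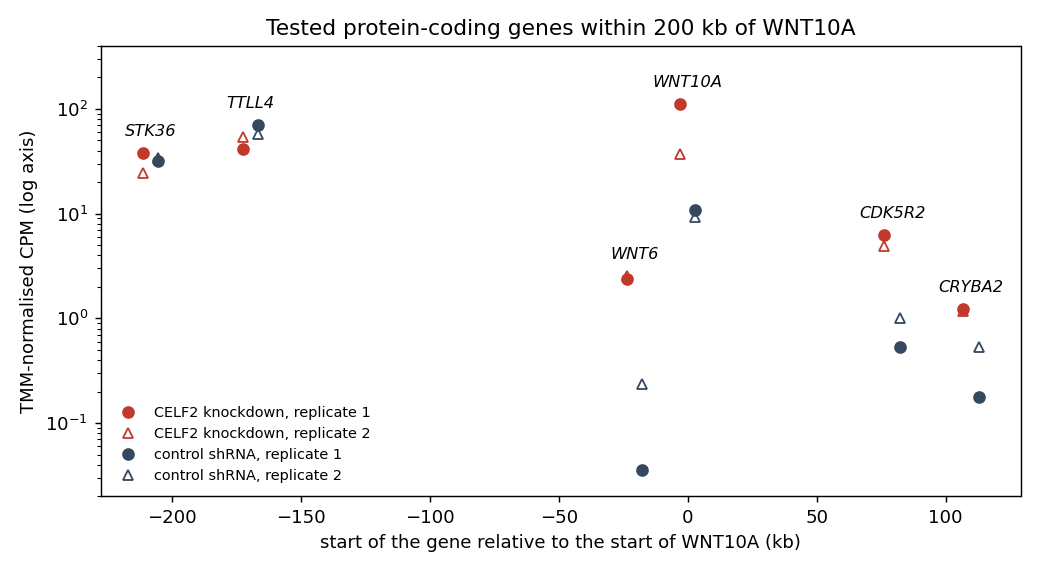
CPM on a log axis of the 6 tested protein-coding genes near WNT10A, placed by the distance of their start from that of WNT10A in kb, with knockdown points drawn to the left and control points to the right of each position. WNT6, WNT10A, CDK5R2 and CRYBA2 have both knockdown libraries above both controls, TTLL4 has both below, and STK36 overlaps.

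Of the other receptors and coreceptors, 14 passed the filter and 0 were called by the adjusted p, beside 0.877% of all tested genes. At an unadjusted p below 0.05 (edgeR quasi-likelihood test) 2 were higher and 1 lower, beside 12.1% and 9.97% of all tested genes. The fold changes of the 14 genes split evenly, 7 above and 7 below 0. Their median of 0.09 was -0.02 without knockdown replicate 1 and -0.07 without control replicate 2. FZD4, the receptor for norrin in the retina, had 4.24 and 10.8 CPM in the knockdown and 3.32 and 2.55 CPM in the controls (log2 fold change 1.35, edgeR adjusted p = 0.163) and overlaps PRSS23. Its log2 fold change was 1.87 without knockdown replicate 1 and 0.52 without knockdown replicate 2. FZD10 had 14.5 and 10.1 CPM in the knockdown and 8.001 and 7.12 CPM in the controls (0.70, edgeR adjusted p = 0.215). FZD3, which acts in planar polarity, had 11.1 and 11.9 CPM in the knockdown and 21.4 and 16.4 CPM in the controls (-0.72, edgeR adjusted p = 0.148).

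The R-spondin module and the extracellular inhibitors held no further call. Of the R-spondins, LGR receptors and ligases outside the set 3 passed the filter and 0 were called by the adjusted p. At an unadjusted p below 0.05 (edgeR) 1 was higher and 0 lower, beside 12.1% and 9.97% of all tested genes. RSPO4, the R-spondin of nail formation, had 43.3 and 35.4 CPM in the knockdown and 27.6 and 27.8 CPM in the controls (log2 fold change 0.50, edgeR adjusted p = 0.181). The ligases RNF43 and ZNRF3 overlapped between the groups, with log2 fold changes of 0.04 and -0.01. Of the inhibitors outside the set 6 passed the filter and 0 were called, with a median of 0.22 that was -0.10 without knockdown replicate 1. At an unadjusted p below 0.05 (edgeR) 2 of the 6 were higher and 0 lower, beside the same shares of all tested genes.

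NOTUM, a secreted enzyme that strips the lipid from WNT proteins, had 42 and 13 counts in the knockdown and 2 and 4 counts in the controls. The ratio of summed counts was 9.33, with an exact 95% interval of 4.02 to 26.5 for counting error only, and the fitted log2 fold change of 3.16 ± 0.91 (SE) did not pass (edgeR adjusted p = 0.104). It was 1.93 without knockdown replicate 1, 3.83 without knockdown replicate 2, 2.41 without control replicate 1 and 4.10 without control replicate 2. As in WNT10A, knockdown replicate 1 held the highest value. KREMEN2, a DKK receptor, had 65.3 and 39.0 CPM in the knockdown and 27.5 and 29.5 CPM in the controls (0.87, edgeR adjusted p = 0.112) and overlaps PKMYT1. SFRP1, a decoy for WNT proteins, had 60.3 and 58.6 CPM in the knockdown and 92.0 and 65.9 CPM in the controls (-0.41, edgeR adjusted p = 0.282).

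The 2 genes of ligand secretion lay on opposite sides of 0, and neither passed. PORCN had 51.9 and 46.4 CPM in the knockdown and 21.1 and 33.2 CPM in the controls (log2 fold change 0.86 ± 0.24, SE, edgeR adjusted p = 0.102). Its log2 fold change was 1.23 without control replicate 2. WLS had 89.5 and 73.4 CPM in the knockdown and 101 and 90.9 CPM in the controls (-0.24, edgeR adjusted p = 0.472).

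Inside the cell 0 of 15 tested cytoplasmic genes and 0 of 13 nuclear genes of the beta-catenin branch were called by the adjusted p (edgeR). At an unadjusted p below 0.05, where 12.1% of all tested genes were higher and 9.97% lower, 1 cytoplasmic gene was higher and 0 lower. In the nuclear list 2 were higher and 0 lower. The medians were -0.01 and 0.15, and the cytoplasmic one took either sign among the alternatives. CTNNB1, which encodes beta-catenin itself, had 322 and 430.2 CPM in the knockdown and 496 and 497 CPM in the controls (log2 fold change -0.40, edgeR adjusted p = 0.275). DVL2, a Dishevelled scaffold, had 108 and 96.2 CPM in the knockdown and 72.9 and 72.5 CPM in the controls (0.49, edgeR adjusted p = 0.143). PYGO1 and BCL9L belong to the complex that beta-catenin binds on chromatin. PYGO1 had 4.29 and 6.39 CPM in the knockdown and 1.79 and 1.96 CPM in the controls (1.52, edgeR adjusted p = 0.0837), and BCL9L had a log2 fold change of 0.63 (edgeR adjusted p = 0.0945) with exons shared with CXCR5 and UPK2.

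The usual transcriptional targets of beta-catenin did not pass either. Of 13 tested targets, NOTUM among them, 0 were called by the adjusted p. At an unadjusted p below 0.05 (edgeR) 1, NOTUM, was higher and 0 lower, beside 12.1% and 9.97% of all tested genes. NOTUM, counted among the inhibitors too, had 2 and 4 counts in the controls and could enter through the knockdown libraries alone. RNF43 and ZNRF3 were counted with the R-spondin module too, and TCF7 and LEF1 with the nuclear genes. Of the 13 fold changes, 10 were above 0 and 3 below. In 3 genes both knockdown libraries were above both controls, beside 27.1% of all tested genes. The median of 0.23 became 0.10 with control replicate 1 left out and 0.38 with control replicate 2 left out. AXIN2, the feedback inhibitor most often read as a report of canonical signalling, had 0.739 and 1.47 CPM in the knockdown and 0.750 and 0.534 CPM in the controls. The groups overlapped at this low level (log2 fold change 0.77 ± 0.56, SE, edgeR adjusted p = 0.463), and the count of AXIN2 is uncertain, since AC004805.1, annotated as protein-coding on the same strand, shares exon positions with it.

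Planar cell polarity genes, which orient cells within an epithelial sheet, had 11 tested members, of which 0 were called by the adjusted p. At an unadjusted p below 0.05 (edgeR) 2 were higher and 0 lower, beside 12.1% and 9.97% of all tested genes. CELSR2, an atypical cadherin of the polarity core, had 177 and 141 CPM in the knockdown and 90.4 and 83.5 CPM in the controls (log2 fold change 0.87 ± 0.18, SE, edgeR adjusted p = 0.0617). VANGL2, its membrane partner, had 23.9 and 22.9 CPM in the knockdown and 12.6 and 11.3 CPM in the controls (0.97 ± 0.21, edgeR adjusted p = 0.0673). Both were separated between the groups, yet the median of the list, 0.33, was -0.16 without knockdown replicate 1.

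**Figure D5:**
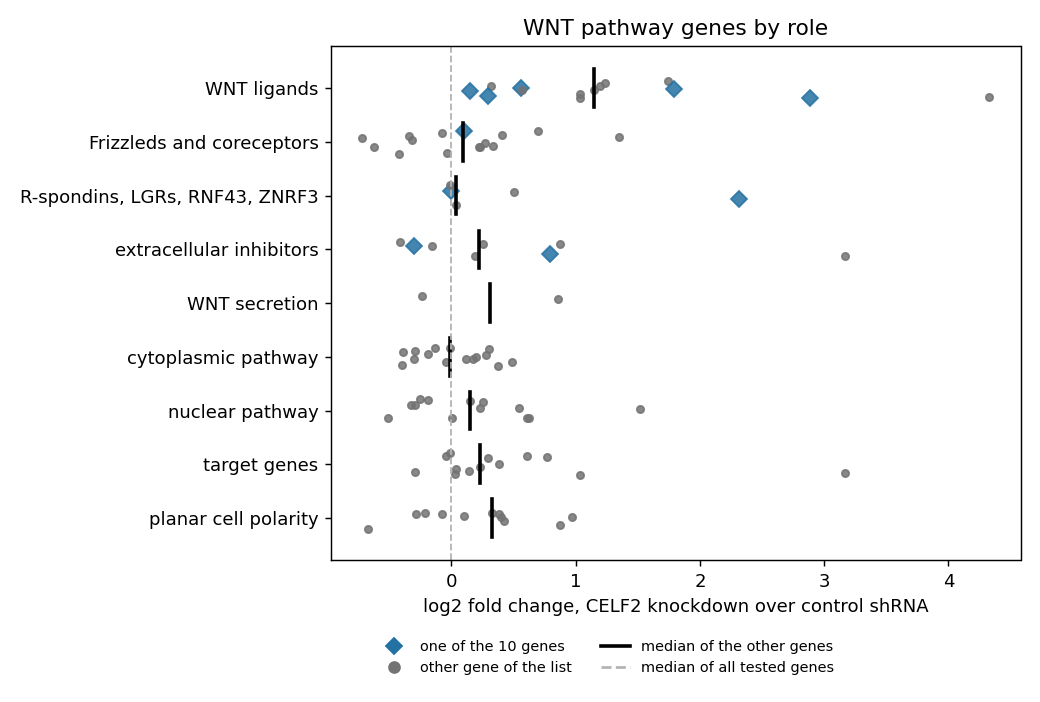
Log2 fold changes of tested WNT pathway genes by role, with the 10 described genes as diamonds, other genes as points, a black bar at the median of the other genes and a dashed line at the median of all tested genes. The other ligands have a median of 1.15, and every other list has a median between -0.01 and 0.33.

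Over the 9 WNT lists together, 81 genes outside the set were tested and 0 were called by the adjusted p. At an unadjusted p below 0.05 (edgeR) 17 were higher and 1 lower, beside 12.1% and 9.97% of all tested genes. Their median log2 fold change was 0.23, with 52 above 0 and 29 below, and it was 0.10 without knockdown replicate 1. In 30 both knockdown libraries were above both controls and in 11 below both, beside 27.1% and 27.9% of all tested genes. The longest annotated transcript of WNT10A is rich in G and C (65.45%), a property that moved with the fold change over all genes. The median log2 fold change was -0.19 in the 1510 tested genes of lowest GC content and 0.24 in the 1510 of highest. The 773 tested genes within 2 percentage points of WNT10A in GC content had a median of 0.24, and after a correction for GC content the log2 fold change of WNT10A was 2.54. The same correction gave a median of 0.10 over the 81 genes, 0.99 over the 9 other ligands, 0.09 over the beta-catenin targets and 0.10 over the planar polarity genes.

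Proliferation genes also moved with the groups. All 8 of a short list (MKI67, TOP2A, CCNB1, CDK1, CDC20, AURKB, PCNA and MCM5) were lower in both knockdown libraries than in both controls, as were 27.9% of all tested genes. By the adjusted p (edgeR) 3 of them fell, beside 0.27% of all tested genes, and their summed level was 789 and 1079 CPM in the knockdown against 3411 and 1974 CPM in the controls. The part of proliferation in the WNT values was not tested.

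The 5 genes whose profile over the 4 libraries was nearest to that of WNT10A, by the Euclidean distance of centred log2 CPM over genes averaging 5 CPM or more, were ARSI, RPL3L, CLDN1, KRT86 and IGFL2-AS1, at distances of 0.43, 0.51, 0.52, 0.54 and 0.54. ARSI, a sulfatase, had 18.3 and 6.82 CPM in the knockdown and 2.64 and 1.60 CPM in the controls. CLDN1, the claudin of epidermal tight junctions, had 13.9 and 5.97 CPM in the knockdown and 1.57 and 1.84 CPM in the controls. KRT86, a hair keratin, had 710 and 428 counts in the knockdown and 141 and 76 counts in the controls, though its exons overlap those of other genes and its close keratin paralogs make it uncertain. As 4 libraries give few distinct profiles, this nearness is a description only.

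CELF proteins bind GU-rich stretches of RNA, many of them in 3′ untranslated regions, so the 3′ untranslated regions of the 10 genes were searched for TGTGTG, overlapping matches included. WNT7A had 27 matches in 2686 bases, and 0.257% of 19436 genes in GENCODE v29 had as many. Its densest 30 bases are shown because WNT7A had the most matches of the 10 genes, as DNA letters of the transcript strand, with capitals marking the repeat (GRCh38, chr3:13817441-13817470, minus strand, bases 1474 to 1503 after the stop codon).
WNT7A 3′ UTR stretch: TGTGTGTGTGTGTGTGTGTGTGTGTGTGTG

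Those bases alone held 13 overlapping matches. DKK1 had 5 matches in 850 bases (7.26% of genes had as many), WNT5A and LGR4 had 3 each, DKK3 had 2 and FZD7 had 1. WNT10A, WNT4, WNT7B and LGR6 had none. At least 1 match was found in 6 of the 10 genes and in 40.6% of all genes with an annotated 3′ untranslated region. WNT7A, with the most matches, overlapped between the groups (log2 fold change 0.15). Of the 4 genes separated between the groups, WNT10A, WNT4 and LGR6 had no match in these letters and DKK3 had 2. The search covered 1 motif in 1 annotated transcript per gene, and its part in the differences was not tested. No binding of CELF2 was measured in these data, and CELF2 itself had 0 counts in each knockdown library and 1 and 0 in the controls.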

How the data were processed

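PolyA RNA from 4 SCC13 libraries, 2 CELF2 knockdown and 2 control shRNA, was sequenced after TruSeq library preparation, per the labels' protocols. The authors deposited raw read counts in 1 table for 60617 Ensembl genes, with 1 column per library; HISAT2, edgeR and GRCh38 are named, without versions, per the submitters' processing notes. The counting program, annotation release, strand setting and treatment of shared reads were not given in the sources used here.

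Groups and replicate numbers came from the sample titles. Counts were tested with edgeR 4.0.16 (R 4.3.3) by the quasi-likelihood test, with TMM normalisation, filterByExpr at a minimum count of 10 (15170 genes kept) and Benjamini-Hochberg adjustment over all of them at 0.05; the procedure was tested on simulated data. CPM are TMM-normalised, with the SD over 2 libraries. Libraries of a group differed beyond sampling noise (chi-square per degree of freedom 48.1 in the knockdown and 54.3 in the controls). The common biological coefficient of variation was 21.6%. Depths of 17649090 to 27898889 counts set floors of 0.107 to 0.178 CPM at 3 counts; intervals are exact and cover counting error only.

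Exon lengths, GC content and overlaps were taken from GENCODE v29 (GRCh38; 58542 of the 60617 IDs matched) and promoter sequences from RefSeq (GRCh38.p14). The 10 genes, the lists, the tests and the alternatives were chosen with earlier results of these data known. Named outside the 10 were CELF2, up to 4 genes per WNT list with the smallest unadjusted p (values are given for a part of them), the 5 genes nearest to WNT10A in profile, and its protein-coding neighbours. The other genes near WNT10A, the GC correction and the motifs were chosen after values were seen. Alternatives were RLE and upper-quartile factors, no filter, DESeq2 1.42.0, limma-voom (limma 3.58.1), a replicate block, each library left out, and the GC correction.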

Additional observations from a re-analysis of the deposited data

How the results depend on the processing

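Over all genes 133 were called with all 4 libraries (69.2% higher), against 181 with upper-quartile factors, 207 with RLE factors, 288 after the GC correction (51.0% higher), 1354 with DESeq2, 2139 without a filter and 0 with limma-voom (3402 at an unadjusted p below 0.05). Leaving out each library gave 0 (without control replicate 1, 1724 at an unadjusted p below 0.05) to 616 calls (without control replicate 2), with 365 without knockdown replicate 1 and 7 without knockdown replicate 2. Among the other WNT list genes the count of 0 became 1 with RLE or upper-quartile factors or the GC correction, 7 with DESeq2, 12 without a filter and 0 to 4 with a library left out (4 without control replicate 2, 2 without knockdown replicate 1). With the replicate number as a block the counts were 1579 over all genes and 10 in the WNT lists; deviations of same-numbered libraries had a correlation of 0.191, from which 2 pairs cannot show that the numbers pair samples. ZNRF3 (-0.01) changed sign to 0.0002 with RLE factors, 0.051 with upper-quartile factors and 0.008 without a filter, and ran from -0.13 to 0.11 with a library left out; RNF43 (0.04) ran from -0.090 to 0.17. In each such fit the lone library of a group is assumed to vary like the other group. The cause of these shifts was not tested. The sign of WNT10A, WNT4, LGR6 and DKK3 was positive under all 11 alternatives. WNT7B was positive (lowest 0.0083) and DKK1 negative (highest -0.0401) under all 11 too, though both overlapped between the groups. Depth limits WNT6, NOTUM and LGR6, whose control libraries held 1 to 20 counts.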

Other observations

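WNT10A is also one of the genes in which inherited variants cause ectodermal dysplasia or missing teeth. Of 15 tested genes of that kind outside the 10 described, 1 rose and 0 fell (edgeR quasi-likelihood test, Benjamini-Hochberg), against 4 higher and 0 lower at an unadjusted p below 0.05. Among all tested genes 0.606% were called higher and 0.27% lower, and 12.1% were higher and 9.97% lower at that unadjusted level. In 8 of the 15 both knockdown libraries were above both controls, beside 27.1% of all tested genes, and the median log2 fold change was 0.37. NECTIN4, a cell adhesion protein of the nectin family, rose to 8.92 and 9.84 CPM in the knockdown, against 2.39 and 1.78 CPM in the controls, a log2 fold change of 2.15 ± 0.33 (SE, edgeR adjusted p = 0.0483). Its call was lost without knockdown replicate 2 (adjusted p = 0.107), without control replicate 1 (0.142) and with limma-voom (0.0558), over a range of 9.44e-07 to 0.142 among the alternatives. NFKBIA, the inhibitor of NF-kB, PKP1, a desmosome protein, and NECTIN1 had log2 fold changes of 0.80, 0.57 and 0.53 (edgeR adjusted p = 0.0758, 0.0978 and 0.129) and did not pass.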
